A study of Homo sapiens with 15 samples.

Results

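The expression of 9 regulators of epithelial identity was examined in oral cell lines before and after loss of YBX1, a protein that binds the Y-box of DNA and also binds RNA. They comprised 7 transcription factors (TP63, GRHL1, GRHL2, OVOL1, KLF5, ELF3 and EHF) and 2 splicing regulators (ESRP1 and ESRP2), each found by its gene symbol among the 12995 genes of the deposited tables. All 9 were listed in both tables. The 15 libraries, 3 in each of 5 groups, came from OKF6, a normal oral epithelial line, and from the oral cancer lines SCC15 and SCC25. All SCC15 and SCC25 cells expressed Cas9 together with YBX1 guides that doxycycline switches on, and were sorted as pools of double-positive cells rather than as clones. Those labelled wild type received no doxycycline (+YBX1), and those labelled YBX1 knockout received 1 ug/ml for 3 days (-YBX1). OKF6 was labelled wild type, with no construct named. SCC15 was cultured in DMEM plus serum, whereas the other lines were kept in a serum-free keratinocyte medium, and in any comparison of SCC15 the culture medium and the line cannot be told apart. No group received doxycycline without a guide against YBX1, so the drug and the loss of YBX1 cannot be told apart either. Nothing in the sources used here says that the replicates were separate cultures, so the p-values measure the spread between these libraries alone, which may be technical.

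In stratified epithelia p63, encoded by TP63, is the master factor of basal keratinocytes and drives keratin, integrin and desmosome genes. The grainyhead-like proteins GRHL1 and GRHL2 bind enhancers of genes for cell junctions and surface proteases, and keep them open. OVOL1 is a zinc finger repressor that restrains mesenchymal genes, KLF5 is a zinc finger activator of basal proliferation, and ELF3 and EHF are epithelium-specific members of the ETS family. ESRP1 and ESRP2 bind pre-mRNA and select the epithelial exons of genes such as FGFR2, CD44, CTNND1 and ENAH. Cells that undergo an epithelial to mesenchymal transition (EMT) are known to lose several of these factors, while ZEB1, ZEB2 and SNAI proteins repress epithelial genes through E-box motifs.

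Levels are given as log2 CPM, the reads of a gene scaled to the normalized size of its library, or as reads. The normalized size is not the number of counted reads. QuantSeq 3′ libraries yield about 1 fragment per transcript near its end. The values therefore do not tell apart the p63 isoforms that differ at their start, nor the exons that ESRP proteins select. The libraries held between 4075290 and 6118501 counted reads, and 3 reads, taken as the floor, were worth at most 0.677 CPM. Squamous markers (10 genes, 10 listed) summed to between 27065 and 37618 CPM in OKF6 and between 13584 and 24248 CPM in SCC25 +YBX1, but to between 64.1 and 94.2 CPM in SCC15 +YBX1. Most of the SCC15 reads came from the simple keratin KRT18 (280, 339 and 351 reads), while KRT5 had 15, 2 and 53 reads and CDH1, which encodes E-cadherin, 7, 1 and 14. The defining squamous markers thus had few reads in a line labelled as head and neck cancer. Whether these libraries match SCC15 as grown elsewhere cannot be settled from the files, so every SCC15 difference is that of the libraries so labelled. Of the fibroblast and mesenchymal markers 4 of 10 were listed, and they summed to between 338 and 359 CPM in SCC15 +YBX1 against between 2443 and 3215 CPM in SCC25 +YBX1, so these markers were not higher in SCC15 as a group. Of the haematopoietic markers 2 of 7 were listed, with sums between 1.35 and 8.53 CPM over all libraries, and of the endothelial markers 0 of 5. In bulk samples fewer cells of a type and less RNA per cell cannot be told apart.

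Because YBX1 is named for the Y-box, an inverted CCAAT sequence, the promoters of the regulators are shown before their values. RefSeq promoter entries (GRCh38.p14, 250 bases before to 50 after each start) were used for 5 of the 9 genes, with 7 starts between them. These were TP63, GRHL1, ELF3, EHF (2 starts) and KLF5 (2 starts). GRHL2, OVOL1, ESRP1 and ESRP2 had no entry used here. The 250 bases upstream of the start are given below, 5′ to 3′ on the plus strand, for 2 transcription factors that kept between 20 and 57 reads in each SCC15 +YBX1 library (GRHL1 and KLF5) and for the ETS pair that did not (ELF3 and EHF). Capitals mark CCAAT or its complement ATTGG, and the E-box CACCTG. GRHL1 lies at chr2:9951443-9951692, KLF5 at chr13:73058755-73059004, ELF3 at chr1:202010337-202010586 and EHF at chr11:34624007-34624256.
GRHL1: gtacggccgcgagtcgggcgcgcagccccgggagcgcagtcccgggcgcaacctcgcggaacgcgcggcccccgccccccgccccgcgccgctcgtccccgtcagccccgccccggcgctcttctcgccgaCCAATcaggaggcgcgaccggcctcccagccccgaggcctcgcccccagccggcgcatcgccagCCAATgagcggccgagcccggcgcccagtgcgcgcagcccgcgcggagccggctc
KLF5: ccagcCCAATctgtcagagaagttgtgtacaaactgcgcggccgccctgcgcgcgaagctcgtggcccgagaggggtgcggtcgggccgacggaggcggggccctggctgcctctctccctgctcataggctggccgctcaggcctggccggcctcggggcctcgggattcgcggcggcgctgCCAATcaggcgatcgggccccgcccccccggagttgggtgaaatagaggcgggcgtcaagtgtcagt
ELF3: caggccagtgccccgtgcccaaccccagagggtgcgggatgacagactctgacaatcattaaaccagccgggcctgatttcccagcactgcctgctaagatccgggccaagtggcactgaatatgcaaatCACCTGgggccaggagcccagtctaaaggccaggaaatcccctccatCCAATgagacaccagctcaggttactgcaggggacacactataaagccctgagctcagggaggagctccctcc
EHF: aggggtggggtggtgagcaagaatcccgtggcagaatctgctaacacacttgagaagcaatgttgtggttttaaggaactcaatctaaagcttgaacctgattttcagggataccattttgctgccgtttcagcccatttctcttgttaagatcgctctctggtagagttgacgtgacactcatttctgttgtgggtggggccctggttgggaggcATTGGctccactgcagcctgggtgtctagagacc
CCAAT or ATTGG (searched on both strands over the full 300-base entry) was present in 6 of the 7 entries and in all 5 genes, against 34.6% of all 35116 entries. GRHL1 held it at -119 and -55 from the start, KLF5 at -245 and -67, ELF3 at -73 and EHF at -34. The E-box CACCTG (or CAGGTG), which ZEB and SNAI proteins bind, was found in ELF3 alone, at -120, against 20.6% of all entries. AACCGGTT, a motif bound by grainyhead proteins, was found in 0 of the 7 entries and in 0.134% of all entries. These matches are letters in a window and not measured binding. The entries also differed in base composition, for which no value over all entries was computed. A link of composition to expression was not tested. GRHL1 had 81.6% G and C with 45 CpG sites in the 250 bases and the KLF5 start printed here 70.8% with 27. The other KLF5 start had 40.8% with 3, ELF3 58.4% with 4, the EHF starts 50% with 4 and 47.6% with 2, and TP63 44% with 6. The TP63 entry is the most upstream start of that gene (chr3:189631139-189631388), whereas keratinocytes mainly use a start inside the gene.

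TP63 (ENSG00000073282, chr3:189631389-189897276 in hg38, plus strand), the basal keratinocyte factor, had 7.50, 6.70 and 6.68 log2 CPM in OKF6. It had 7.64, 7.16 and 6.63 in SCC25 +YBX1 and 7.60, 7.69 and 6.48 in SCC25 -YBX1, so the 3 groups overlapped. Every SCC15 library held it at the floor, with 0, 0 and 1 reads in +YBX1 cells and 0, 1 and 1 reads after the knockdown. It was the 1 regulator with a higher mean in SCC25 +YBX1 (7.14 ± 0.50, SD, n = 3) than in OKF6 (6.96 ± 0.47), by less than either spread.

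The grainyhead genes differed from each other in SCC15. GRHL1 (ENSG00000134317, chr2:9951693-10002277, plus strand) had 4.63, 5.12 and 5.64 log2 CPM in OKF6, 3.459, 3.55 and 3.14 in SCC25 +YBX1 and 2.43, 1.79 and 2.32 in SCC15 +YBX1. These 3 groups did not overlap, with OKF6 highest and SCC15 lowest, and SCC15 still gave 29, 20 and 32 reads. After the knockdown GRHL1 had 3.68, 4.58 and 3.16 log2 CPM in SCC25 and 2.33, 1.01 and 1.75 in SCC15. GRHL2 (ENSG00000083307, chr8:101492439-101669726, plus strand), the family member of most simple and oral epithelia, had 4.24, 4.05 and 5.16 log2 CPM in OKF6, 3.459, 4.0 and 3.58 in SCC25 +YBX1 and 3.81, 4.12 and 3.28 in SCC25 -YBX1. SCC15 held 0, 0 and 1 GRHL2 reads with YBX1 and 0 in all 3 libraries without it. Genes with no symbol lie on the opposite strand at the 3′ ends of GRHL1 and OVOL1, and whether counting used strand is not given in the sources used here.

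The zinc finger genes OVOL1 and KLF5 also parted in SCC15. OVOL1 (ENSG00000172818, chr11:65787063-65797214, plus strand), the repressor, had 3.58, 3.16 and 4.10 log2 CPM in OKF6 and 3.86, 3.88 and 2.96 in SCC25 +YBX1, which overlapped. It had 1, 4 and 0 reads in SCC15 +YBX1 and 1, 0 and 0 in SCC15 -YBX1. The SCC25 -YBX1 libraries spread more widely for OVOL1, at 3.38, 4.93 and 2.11 log2 CPM. KLF5 (ENSG00000102554, chr13:73054976-73077541, plus strand), the activator, had 7.14, 7.76 and 7.85 log2 CPM in OKF6, 6.90, 7.02 and 6.48 in SCC25 +YBX1 and 6.78, 7.55 and 6.296 in SCC25 -YBX1. KLF5 was lower in SCC15 but well above the floor, at 2.43, 3.06 and 3.15 log2 CPM (29, 49 and 57 reads) with YBX1 and 3.06, 2.67 and 3.18 without.

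Both ETS genes were at the floor in SCC15. EHF (ENSG00000135373, chr11:34621093-34663288, plus strand) had 7.27, 6.07 and 7.0 log2 CPM in OKF6, 5.79, 5.83 and 5.44 in SCC25 +YBX1 and 6.04, 5.91 and 5.92 in SCC25 -YBX1. It had 0, 0 and 1 reads in SCC15 +YBX1 and 0 in every SCC15 -YBX1 library. ELF3 (ENSG00000163435, chr1:202007945-202017183, plus strand) was low everywhere, with 5, 18 and 41 reads in OKF6, 12, 23 and 1 in SCC25 +YBX1, 9, 59 and 2 in SCC25 -YBX1, 0 in each SCC15 +YBX1 library and 0, 1 and 0 in SCC15 -YBX1. Its libraries spread so widely within OKF6 and SCC25 that those groups overlapped.

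The splicing regulators were low in the same line as the transcription factors. ESRP1 (ENSG00000104413, chr8:94641074-94707466, plus strand) had 7.78, 7.33 and 7.23 log2 CPM in OKF6, 6.53, 6.38 and 6.17 in SCC25 +YBX1 and 6.47, 6.36 and 6.35 in SCC25 -YBX1. SCC15 gave 8, 0 and 3 ESRP1 reads with YBX1 and 6, 0 and 6 without. ESRP2 (ENSG00000103067, chr16:68229033-68238102, minus strand) had 6.90, 5.61 and 6.06 log2 CPM in OKF6, 5.77, 5.79 and 5.56 in SCC25 +YBX1 and 5.83, 5.47 and 5.38 in SCC25 -YBX1, against 3, 2 and 2 reads in SCC15 +YBX1 and 0, 4 and 0 in SCC15 -YBX1. The 3′ end of ESRP2 is overlapped by NFATC3 on the opposite strand, so its reads could not be assigned by position alone.

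**Figure D1:**
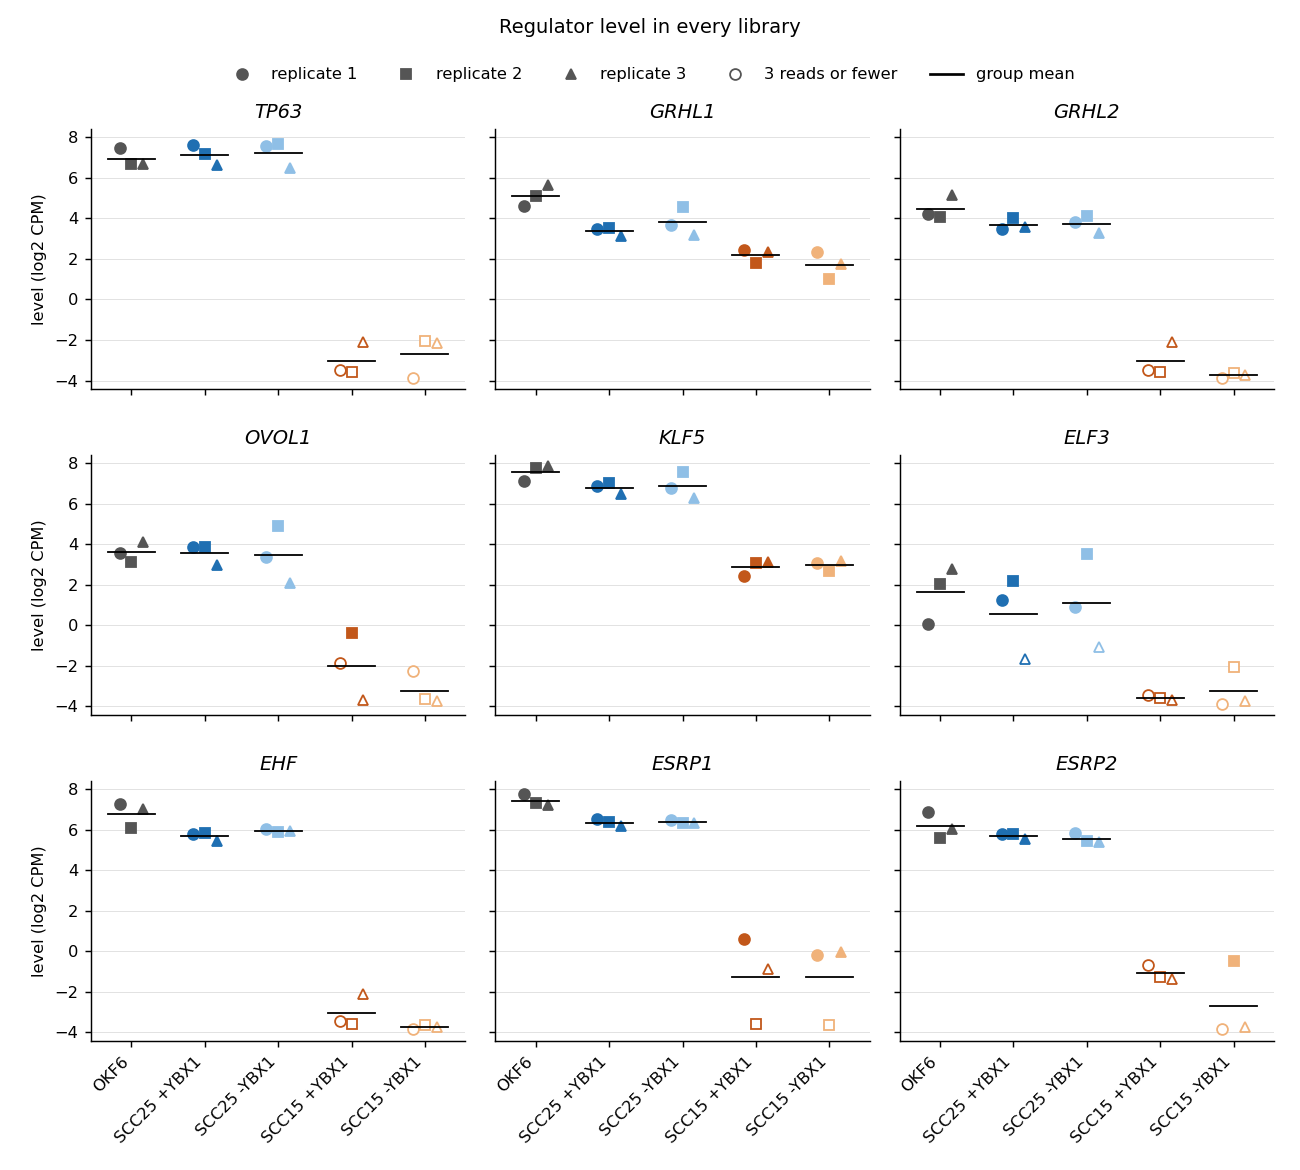
Level of each regulator (log2 CPM, vertical axis) in the 15 libraries of the 5 groups, 1 panel per gene, with symbols for replicates, open symbols for 3 reads or fewer and a black line for the group mean. OKF6 and SCC25 lie high in every panel except ELF3, and in SCC15 +YBX1 only GRHL1 (20 to 32 reads) and KLF5 (29 to 57 reads) stay above the floor in all 3 libraries.

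Compared with SCC25 +YBX1, all 9 regulators were lower in SCC15 +YBX1 by limma's two-sided test, at a threshold of 0.05 on p values adjusted over all genes by the Benjamini-Hochberg method, where 23.6% of all genes were called lower. The median log2 difference of the 9 was -6.73 (-6.27 with genes of 3 SCC15 reads or fewer set to a floor of 3 reads over the group) and that of all genes -0.01. For genes at 0 or 1 read the fitted difference depends on the 0.5 reads that the authors added, so the ratio of reads summed over each group is given with its 95% counting interval. TP63 was 2663-fold higher in SCC25 (477 to 105218), EHF 931-fold (167 to 36810) and GRHL2 231-fold (41.0 to 9167), each against 1 read in SCC15. ELF3, with 0 reads in SCC15, was 14.1-fold higher in SCC25 with SCC15 set to 3 reads over the group. That ratio has no interval, and the SCC25 reads were 12, 23 and 1. The fitted log2 difference of ELF3 was -4.16 (95% CI -6.33 to -1.99). ESRP1 was 135-fold higher (75.0 to 271) and ESRP2 134-fold (64.7 to 334). OVOL1 was 44.3-fold higher (18.7 to 138), on 5 reads in SCC15. The intervals on summed reads cover counting error alone.

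KLF5 and GRHL1 showed the smaller differences that can be read as fitted values. KLF5 was lower in SCC15 by a log2 difference of -3.93 (SE 0.27, adjusted p = 1.24e-06 with limma). GRHL1 differed by -1.21 (SE 0.36, adjusted p = 0.0185). For all 9 the SCC15 libraries lay below the SCC25 libraries without overlap, as they did for 34.1% of all genes. The GRHL1 call was lost on leaving out SCC15 +YBX1 replicate 2 (adjusted p = 0.0700), SCC25 +YBX1 replicate 1 (0.0595) or SCC25 +YBX1 replicate 2 (0.0682), while its difference stayed between -1.33 and -1.01, and limma's adjusted p ranged from 0.00881 to 0.0700 over the libraries left out.

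Against OKF6 the pattern in SCC15 was alike, with 9 of 9 regulators lower (limma) where 23.4% of all genes were called lower. This comparison shares the SCC15 +YBX1 libraries with the one above. The median log2 difference was -7.28 (-7.20 with the floor) against 0.10 for all genes. TP63 was 2312-fold higher in OKF6 (414 to 91356), EHF 2142-fold (384 to 84636), GRHL2 440-fold (78.6 to 17435), ESRP1 287-fold (160 to 576), ESRP2 202-fold (98 to 505) and OVOL1 46.4-fold (19.6 to 145). ELF3 was at least 24.5-fold higher in OKF6. GRHL1 was lower in SCC15 by a log2 difference of -2.95 (SE 0.36) and KLF5 by -4.71 (SE 0.27). All 9 calls held with every library left out in turn, and all 9 were lower in SCC15 without overlap, against 25.5% of all genes.

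SCC25 differed far less from OKF6. GRHL1 was the 1 regulator called, lower in SCC25 by a log2 difference of -1.75 (SE 0.36, adjusted p = 0.00431 with limma), where 11.3% of all genes were called lower. It was called on leaving out any library, at adjusted p values from 0.00151 to 0.0227. Of the other members, 7 were lower by sign, and the median of the 9 was -0.80 against 0.13 for all genes. KLF5 differed by -0.78 (SE 0.27, 95% CI -1.39 to -0.18, adjusted p = 0.0529), EHF by -1.10 (SE 0.48, -2.15 to -0.04, adjusted p = 0.109) and ESRP1 by -1.09 (SE 0.80, -2.85 to 0.68, adjusted p = 0.333), and for each of these, as for GRHL1 and GRHL2, the SCC25 libraries lay below the OKF6 libraries without overlap, 5 of 9 members against 18.1% of all genes. The SE of ESRP1 came from a spread shared over all 3 lines, with an SD of 2.13 in SCC15 at 0 to 8 reads but of 0.29 in OKF6 and 0.18 in SCC25. With only OKF6 and SCC25 in the fit, ESRP1 had the same difference with an adjusted p of 0.00946, and GRHL1, EHF and ESRP1 were called, 3 in all. GRHL2 differed by -0.80 (CI -2.0 to 0.39), ESRP2 by -0.48 (-1.33 to 0.36), ELF3 by -1.06 (-3.23 to 1.11), OVOL1 by -0.04 (-1.70 to 1.61) and TP63 by 0.18 (-0.83 to 1.1995). All 5 of these intervals include 0.

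**Figure D2:**
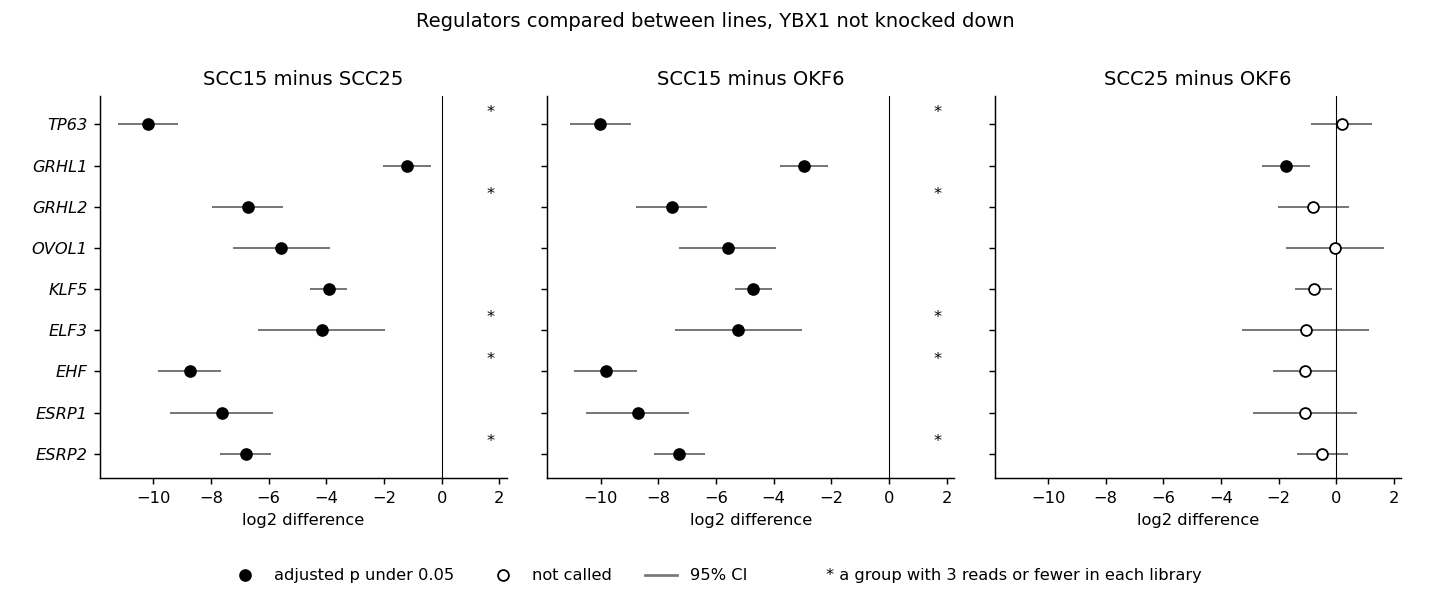
Log2 difference (horizontal axis) of each regulator for SCC15 minus SCC25, SCC15 minus OKF6 and SCC25 minus OKF6, with limma's 95% confidence interval, filled points at an adjusted p under 0.05 and an asterisk where a group held 3 reads or fewer in each library. All 9 points lie below 0 and are filled in both SCC15 panels, while in SCC25 minus OKF6 GRHL1 alone is filled.

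Genes linked to these factors were counted in the same comparisons, from lists drawn up with earlier results of these data known. Of all genes, 23.6% were lower and 20% higher in SCC15 than in SCC25, 23.4% lower and 26.9% higher in SCC15 than in OKF6, and 11.3% lower and 18.9% higher in SCC25 than in OKF6, and the counts of each list are to be read against these shares. Of 19 p63-linked basal keratinocyte genes, 19 were lower in SCC15 than in SCC25 (limma), with a median log2 difference of -7.19 (-6.77 with the floor). PKP1, which encodes the desmosome plaque protein plakophilin-1, had a log2 difference of -11.71, and LAMB3, a laminin-332 subunit, -10.93. These rest on 0, 1 and 6 SCC15 reads of PKP1 and 1, 0 and 6 of LAMB3, and so depend in part on the reads added. Against OKF6, 18 of the 19 were lower in SCC15 and 1 was not called. Of the same 19 genes 8 were lower and 1 higher in SCC25 than in OKF6 (11.3% and 18.9% of all genes), with CLCA2 (-3.11) and the desmosomal cadherin DSG3 (-2.84) lowest and the Notch ligand JAG2 higher (1.203), although TP63 itself did not pass the test there.

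Junction and protease genes linked to grainyhead factors were lower in SCC15 for 16 of 16 listed genes (of 17 in the list) against both SCC25 and OKF6. The plakophilin PKP3 stood at 3 SCC15 reads and was 655-fold higher in SCC25 (224 to 3182), and ST14, which encodes the protease matriptase, 445-fold (152 to 2159), also against 3 reads. In SCC25 against OKF6, 2 of the 16 were lower, among them the protease inhibitor SPINT2 (-0.73), and 14 were not called, where GRHL1 was lower and GRHL2 was not called.

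For 16 genes with ESRP-regulated exons the totals did not move one way. In SCC15 against SCC25, 1 was higher, 6 were lower and 9 were not called, with a median of 0.12. CD44, the hyaluronan receptor, was lower by a log2 difference of -8.80 and SLC37A2 by -4.19, and ARHGEF11 was higher by 1.13. Against OKF6 the counts were 4 higher and 6 lower of 16 in SCC15 (26.9% and 23.4% of all genes), and 4 higher and 4 lower in SCC25 (18.9% and 11.3%). Of the epithelial exon switches themselves nothing can be read from 3′ counts.

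Other epithelial regulators (16 of 18 listed) were mixed. In SCC15 against SCC25, 11 were lower and 2 higher, with a median of -2.44 (-2.19 with the floor). BNC1, at 1 SCC15 read, had the largest fitted fall of the list and was 1963-fold higher in SCC25 (352 to 77576). The pioneer factor FOXA1, with 1 read in SCC25, was 42.4-fold higher in SCC15 (7.28 to 1709), and GATA3 was higher there by a log2 difference of 2.48. In SCC25 against OKF6, 6 were lower, with ZNF750 (-3.04) and GRHL3 (-2.97) first, and TP73 was higher (2.29). GRHL3, the grainyhead member of late differentiation, thus moved the same way as GRHL1 there.

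YBX1 was read first to check the knockdown. It had 6.74, 6.31 and 6.62 log2 CPM in SCC25 +YBX1 against 5.26, 4.70 and 3.65 in SCC25 -YBX1, and 5.11, 5.56 and 6.00 in SCC15 +YBX1 against 3.36, 3.71 and 3.13 in SCC15 -YBX1, so that transcript remained in every library. In both lines the -YBX1 libraries lay below the +YBX1 libraries without overlap, as they did for 3.76% of all genes in SCC25 and 3.78% in SCC15. The log2 difference was -2.01 in SCC25 (SE 0.35, adjusted p = 0.290 with limma) and -2.15 in SCC15 (SE 0.35, adjusted p = 0.326), and averaged over the lines -2.08 (SE 0.24, adjusted p = 0.0103, or 0.0371 with the replicate block), which made YBX1 the 1 gene called there. That call was lost without any of 6 of the 12 libraries in turn (SCC15 +YBX1 replicates 2 and 3, SCC15 -YBX1 replicates 1 and 3, and SCC25 +YBX1 replicates 1 and 3), with adjusted p values up to 0.0711. In OKF6 YBX1 stood at 6.76, 8.15 and 8.37 log2 CPM.

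None of the 9 regulators passed the test after the knockdown. In SCC25 -YBX1 against +YBX1, 0 of 9 were called with limma, as were 0% of all genes, and 0 of the 9 had an unadjusted p under 0.05, against 3.09% of all genes. Voom weights also called 0. By sign 7 were higher and 2 lower, with a median log2 difference of 0.07. The narrowest interval was that of KLF5, at 0.07 (95% CI -0.58 to 0.73), and the widest that of ELF3, at 0.54 (-1.79 to 2.87). TP63 differed by 0.11 (-1.10 to 1.33), GRHL1 by 0.42 (-0.48 to 1.32), GRHL2 by 0.05 (-0.98 to 1.09), OVOL1 by -0.09 (-1.87 to 1.69), EHF by 0.27 (-0.65 to 1.19), ESRP1 by 0.04 (-2.03 to 2.10) and ESRP2 by -0.15 (-1.63 to 1.34). A change of 2-fold in either direction lies outside the interval of KLF5 alone. All of these intervals use a spread shared with the SCC15 libraries, so their widths do not describe SCC25 alone. For ESRP1 the SD was 0.18 and 0.063 in SCC25 +YBX1 and -YBX1, against 2.13 and 2.04 in SCC15. For ESRP2 it was 0.13 and 0.24, against 0.39 and 1.93. The SCC25 pairs differed by -0.06, -0.01 and 0.18 for ESRP1 and by 0.05, -0.32 and -0.18 for ESRP2. For GRHL1, KLF5 and ELF3 the largest SD was instead in SCC25 -YBX1 (0.72, 0.63 and 2.3).

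SCC25 -YBX1 replicate 2 was the highest of its group for TP63, GRHL1, GRHL2, OVOL1, KLF5 and ELF3. Against the same-numbered +YBX1 library its log2 differences were 0.53 for TP63, 1.03 for GRHL1, 1.06 for OVOL1, 0.53 for KLF5 and 1.32 for ELF3. In pair 1 the same genes gave -0.04, 0.22, -0.48, -0.13 and -0.32, and in pair 3 -0.15, 0.02, -0.85, -0.19 and 0.62. The splicing regulators did not follow it, with -0.01 for ESRP1 and -0.32 for ESRP2 in pair 2. EHF alone of the 9 was higher in all 3 pairs with no overlap between the SCC25 groups, as 3.56% of all genes were higher without overlap, by 0.25, 0.08 and 0.48, which is 1.19-fold on summed reads (1.09 to 1.31, counting error only), and its limma test did not pass. The top 10 genes of that library held 16.2% of its reads, against 8.43% to 14.5% in the other libraries, and the part of this in the values was not tested. Leaving it out turned TP63 to -0.10, GRHL2 to -0.14, KLF5 to -0.27 and ELF3 to -0.66. Other libraries turned signs too. Without SCC25 +YBX1 replicate 3, TP63 was at -0.14, KLF5 at -0.089, ELF3 at -0.59 and ESRP1 at -0.056. Without SCC25 -YBX1 replicate 3, OVOL1 was at 0.59. The signs of these members therefore rest on single libraries, and none was called.

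In SCC15 -YBX1 against +YBX1 0 of 9 were called with limma, again beside 0% of all genes, and 1 had an unadjusted p under 0.05, against 2.32% of all genes. That was ESRP2, on 4 reads against 7. GRHL1 and KLF5 were the 2 members with reads enough to compare. GRHL1 differed by -0.48 (95% CI -1.38 to 0.42), with pairs at -0.09, -0.78 and -0.57, and KLF5 by 0.09 (-0.56 to 0.75), with pairs at 0.64, -0.39 and 0.03. TP63, GRHL2, ELF3 and EHF were at or under the floor in both groups, and no fold is given. OVOL1 had 1 read against 5 and ESRP1 12 against 11, so neither could be compared at this depth. TP63, GRHL2, ELF3 and EHF, the 4 at the floor in both groups, had at most 1 read in any SCC15 -YBX1 library. The floor of 3 reads was worth at most 0.677 CPM. ESRP2 was also at the floor in SCC15 +YBX1, with 3, 2 and 2 reads, but had 4 reads in SCC15 -YBX1 replicate 2.

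The test of the difference between the lines called 0 of 9 regulators and 0% of all genes, and no member had an unadjusted p under 0.05. The knockdown averaged over both lines called 0 of 9, where 0.0077% of all genes, YBX1 itself, were called. Each of the 6 lists of linked, related and opposing genes likewise had 0 genes called after the knockdown in either line (limma), with 2 genes over all lists at an unadjusted p under 0.05 in SCC25 and 2 in SCC15.

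**Figure D3:**
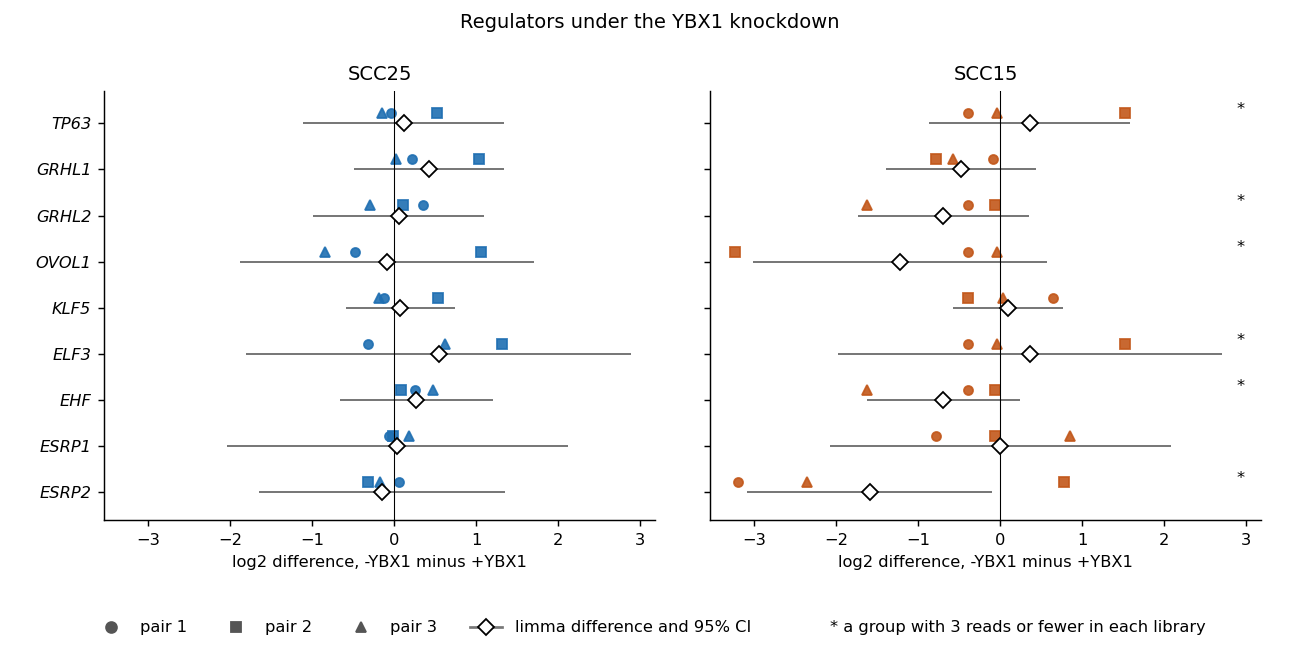
Log2 difference (horizontal axis) of each regulator for -YBX1 minus +YBX1 in SCC25 and in SCC15, with limma's value and 95% confidence interval (diamonds) and the 3 same-numbered pairs (symbols above them), and an asterisk where a group held 3 reads or fewer in each library. None of the 9 passed the test in either line, and in SCC25 pair 2 lies to the right of the other pairs for TP63, GRHL1, OVOL1, KLF5 and ELF3.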

How the data were processed

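RNA from 15 libraries (5 groups of 3) was sequenced by QuantSeq 3′ FWD, and the groups were taken from the sample labels. Per the authors, Cutadapt trimmed the reads, HISAT2 placed them on hg38, featureCounts assigned them to genes, and limma served for filtering and normalization. The authors deposited log2 CPM values in 2 tables of 12995 genes, with 0.5 reads added, and the 6 libraries in both tables differed by at most 5e-08. Setting the lowest value of a library to 0 reads gave whole reads (within 0.05 reads) for 100% of values. Counted reads ran from 4075290 to 6118501 per library, and 1 read was worth 0.138 to 0.226 CPM. The versions of Cutadapt, HISAT2 and featureCounts and the strand setting are not given in the sources used here. A filter on low genes is already in the tables.

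Group differences were fitted on these deposited log2 values by limma 3.58.1 under R 4.3.3 (lmFit, eBayes with a variance trend, all groups of a table, two-sided), with Benjamini-Hochberg adjustment over 12995 genes and a threshold of 0.05. Folds on reads summed over a group have exact 95% binomial intervals (Clopper-Pearson). A group at 0 reads was set to 3, and such a fold has no interval. The code was tested on simulated data. Gene positions are those of GENCODE v44 and promoters those of RefSeq (GRCh38.p14). Figures were drawn with matplotlib 3.10.9.

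The numbers of the replicates come from the labels. Deviations from the group means were correlated between +YBX1 and -YBX1 libraries over 6497 genes above the median. Same-numbered libraries gave 0.14, 0.47 and 0.42 in SCC25 and 0.50, 0.31 and 0.12 in SCC15. Unlike-numbered libraries gave -0.53 to 0.24 in SCC25 and -0.41 to 0.35 in SCC15, so some exceeded same-numbered ones. The knockdown was also fitted with the replicate number as a block. Between lines the correlations had both signs and the numbers were not taken as pairs.

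The members and the gene lists were chosen with earlier results of these data known. All 9 members were named in every group. Of each list up to 4 called genes per comparison were named, the 2 largest differences in each direction. For each member the 3 genes nearest to it had the smallest root-mean-square difference of gene-centred group means over the 5 groups. KRT5, KRT18 and CDH1 were named after their values were seen. Some genes that this rule would name are not reported here. Each result was recomputed with the replicate block, with only the groups compared, and with equal medians, quantile normalization, no variance trend, robust eBayes, 2 reads added in place of 0.5, voom weights on recovered reads, genes above the first quartile, a threshold of 0.01 and each library left out.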

Additional observations from a re-analysis of the deposited data

How the results depend on the processing

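In SCC15 against SCC25 and against OKF6 the 9 regulators kept their direction under every alternative. The count called was 8 or 9, save among genes above the first quartile of level, where all 6 members kept were called in both comparisons (GRHL2, OVOL1 and ELF3 were left out by that filter). Setting library medians equal moved the median of all genes in SCC15 against SCC25 from -0.01 to 0.14, and quantile normalization moved it to 0.17, small beside the members' differences. In SCC25 against OKF6 the count of 1 became 3 with only the groups compared, 2 with quantile normalization, 3 with 2 reads added and 4 with voom weights, and lay between 1 and 2 with a library left out. Genes higher and lower there were 2450 and 1473, or 2006 and 1837 with quantiles set equal. Signs turned there for OVOL1 (-0.27 to 0.26 over the libraries left out), TP63 (-0.064 to 0.45) and ELF3 (-1.87 to 0.074). In the SCC25 knockdown they turned for TP63 (-0.14 to 0.50), GRHL2 (-0.14 to 0.28), OVOL1 (-0.82 to 0.59), KLF5 (-0.27 to 0.36), ELF3 (-0.66 to 1.63) and ESRP1 (-0.056 to 0.12), and in SCC15 for KLF5 (-0.13 to 0.24) and ESRP1 (-1.15 to 1.18, and 0.018 with quantile normalization or 0.038 with voom weights). None of these was called. YBX1 averaged over the lines had the same difference of -2.08 without a variance trend but missed the threshold (adjusted p = 0.140), and lay between -2.26 and -1.86 with a library left out. In SCC15 it lay between -2.38 and -1.93 and passed once, without SCC25 -YBX1 replicate 3 (adjusted p = 0.0202). The cause was not tested. The replicate block changed no call of a member, nor of YBX1 in the knockdown (GRHL1 in SCC15 against SCC25, adjusted p = 0.0337 with the block). Between lines, same-numbered libraries correlated from -0.20 to 0.26, with both signs. Depth limits the regulators at or under 3 reads in SCC15, for which only large differences can be seen. The share of promoters with CCAAT or ATTGG was 34.5% for genes in the tables and 32% without the 50 bases after the start.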

Other observations

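Opposing regulators did not move as 1 group. Of the EMT transcription factors (7 of 9 listed), ZEB1 (log2 difference 3.55, limma) and ZEB2 (3.18) exceeded their SCC25 levels in SCC15, while SNAI2 was lower (-1.99). TWIST2, at 0 SCC15 reads, was 22-fold lower with SCC15 set to 3 reads over the group, a ratio with no interval. Against OKF6, ZEB1 was higher in both cancer lines, with 344 reads in SCC15 +YBX1, 23 in SCC25 +YBX1 and 1 in OKF6 over 3 libraries each. SNAI1 was higher in SCC25 (3.21), with 20, 5 and 7 reads against 4, 0 and 0 in OKF6. It had 11, 5 and 6 reads in SCC15 +YBX1, so the higher reads were not particular to SCC25. SCC25 thus held ZEB1 reads together with TP63, GRHL2, ESRP1 and ESRP2 at 196 reads or more each over its 3 libraries. Of the splicing regulators of mesenchymal cells (10 of 11 listed), SCC15 had more CELF2 (5.82) and RBFOX2 (0.61) than SCC25 and less MBNL1 (-1.61) and MBNL2 (-1.24). RBM38 was higher in SCC15 (3.40) and in SCC25 (3.57) than in OKF6, comparisons that share the OKF6 libraries.

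Likeness of pattern over the 5 groups was measured as the root-mean-square difference of gene-centred means (log2 scale), a description over 5 points that share libraries. Nearest to TP63 were MMP9 (0.20), BNC1 (0.22) and SFN (0.22), to GRHL1 THSD1 (0.05), MAN2A1 (0.10) and ZBTB7A (0.11), and to GRHL2 LPAR5 (0.08), HS3ST1 (0.19) and GABRE (0.19). OVOL1 lay nearest to TNFAIP3 (0.16), PTAFR (0.16) and ZNF528 (0.20), and KLF5 to ANTXR2 (0.09), MMP10 (0.10) and PRNP (0.10). For ELF3 they were ITGA2 (0.13), PARP9 (0.17) and SP100 (0.18), and for EHF TM4SF1 (0.13), C19orf33 (0.14) and IL1A (0.16). ESRP1 had EPM2AIP1 (0.10), LIPG (0.13) and IL18 (0.15), and ESRP2 ZBED2 (0.26), CTSZ (0.29) and ETV4 (0.29). For the members at or near the floor in SCC15 (all but GRHL1 and KLF5), the SCC15 means are set by the 0.5 reads added, and likeness to them is in part likeness of the floor.

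In SCC15 after the knockdown, SLC37A2, a gene with an ESRP-regulated exon, had 5 reads against 29 (log2 difference -2.77, SE 0.57, limma's unadjusted p = 0.000276, adjusted p = 0.633), the smallest unadjusted p of the lists linked to the regulators. It was named after its values were seen.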
